A study of Saccharomyces cerevisiae with 10 samples.

Results

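Short unnamed open reading frames are stretches of the budding yeast genome that run from a start codon to a stop codon, carry only a systematic name such as YLR296W, and have no gene name in the deposited tables. The letters of such a name give the chromosome and arm, the number gives the order along the arm, and the final W or C gives the strand. The 417 frames described here were chosen from the 6677 features of the deposited tables by name and size: a systematic name with no suffix and a deposited size of at most 400, which is 1 base less than the frame's length. A set of 9 named features was left out by the rule, and 5 of these would have met both conditions. The frames were 78 to 399 bases long, with a median of 336. No frame was taken in by its values, but the 9 features were left out with earlier results of these data known.

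The series holds 10 Saccharomyces cerevisiae libraries in 5 groups of 2, made by PAR-CLIP, in which a tagged protein is crosslinked to RNA with UV light and the attached RNA is sequenced. The study asked where RNA polymerase II lies before and after Nab3 is removed from the nucleus. All cells were grown in synthetic medium with limiting uracil, and 3 groups are used here. The cassette group (NabCassette), whose sample titles carry WT, received no rapamycin; the sources used here do not define the cassette. The second group carried Nab3-FRB and received rapamycin for a time that was not given; its deposited columns are numbered 2 and 3, and those numbers are kept here. The third group carried Rpb2-HTB, a tagged polymerase II subunit, with Nrd1-FRB, and received rapamycin for 45 min. Only the labels of the third group name the tagged subunit. In the anchor-away method, rapamycin ties an FRB-tagged protein to an anchor that leaves the nucleus; here the tag, the drug and the depletion differ together from the cassette group and cannot be told apart. Libraries from Nab3-FRB cells without rapamycin and from Nab-HTB cells were not analysed here.

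Nab3 and Nrd1 are RNA-binding proteins that act with the helicase Sen1 to end transcription of short RNAs by polymerase II, among them small nucleolar RNAs and the unstable transcripts that arise antisense to genes or from bidirectional promoters. Nab3 favours the RNA letters UCUU, and Nrd1 favours GUAA and GUAG. Many unnamed frames were annotated by length alone, lie over other genes and are not thought to encode a protein, so that reads on them may come from any transcript that crosses the frame. The sources used here do not state whether the counting used strand, so reads from a frame and from a gene on its opposite strand cannot be told apart.

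The 6 libraries held 7395659 to 13428820 reads on features. The short frames took 0.820% to 0.943% of them, or 69718 to 110096 reads a library, and 16 frames had no read in any library. Within each group the libraries differed by more than counting noise, with a chi-square per degree of freedom over all features of 3.0 for the cassette group, 4.98 for the Nab3 group and 11.3 for the Nrd1 group. The labels do not say whether a group's libraries are separate cultures, and the spread behind each p-value may therefore be technical. NRD1, whose RNA is limited by its own protein, served as a reference, with 1959 and 2103 reads in the cassette group. In the Nab3 libraries it had 7487 and 8536, and in the Nrd1 libraries 8805 and 8250. Values of all libraries are given on 1 scale, as reads divided by the authors' size factor, with the Nrd1 table rescaled through the cassette libraries that both tables share.

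The frames fell into classes by their position on genome build R64. The RefSeq annotation of R64 lists 138 of them, and a search of the genome for frames of the deposited length placed another 262, which left 17 without a position. Of the 400 frames with a position, 157 overlapped no annotated gene. A further 189 overlapped a gene on the opposite strand, of which 111 lay over the start of that gene, 70 over its end and 8 inside it. Another 49 overlapped a gene on the same strand, and 5 overlapped genes on both strands. An overlap of 1 base was enough to count, so the classes also hold frames that share only a few bases with a gene. YGR069W, for example, counts as over the start of ART5 with 0.595% of its length. The median overlap was 68.7% of the frame. Overlap went with annotation status: 109 of the 138 annotated frames overlapped nothing, while 172 of the 262 frames placed by search overlapped a gene on the opposite strand.

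The first 200 bases of 6 frames follow, 5′ to 3′ on the strand of the frame, from the R64 genome. Among frames with a cassette mean of at least 10 reads that were past the threshold in each depletion, the first 4 had the largest values of the smaller of their rises, and the last 2 rose after one depletion and fell after the other. Capitals mark TCTT, the DNA form of the Nab3 motif, and GTAA and GTAG, the DNA forms of the Nrd1 motifs. The windows are chrXII:722978-723177, plus strand, for YLR296W, chrX:136174-136373, plus strand, for YJL152W, chrX:102099-102298, plus strand, for YJL169W, chrII:90726-90925, minus strand, for YBL070C, chrXIII:510876-511075, minus strand, for YMR122C, and chrXIII:473065-473264, minus strand, for YMR103C.
YLR296W: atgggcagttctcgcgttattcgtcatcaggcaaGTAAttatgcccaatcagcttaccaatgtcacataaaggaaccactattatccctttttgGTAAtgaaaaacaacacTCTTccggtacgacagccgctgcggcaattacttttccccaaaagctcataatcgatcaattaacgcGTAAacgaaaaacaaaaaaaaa
YJL152W: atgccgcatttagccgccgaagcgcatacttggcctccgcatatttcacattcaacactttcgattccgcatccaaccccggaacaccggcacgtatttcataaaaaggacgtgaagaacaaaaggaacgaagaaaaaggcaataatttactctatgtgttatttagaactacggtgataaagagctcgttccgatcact
YJL169W: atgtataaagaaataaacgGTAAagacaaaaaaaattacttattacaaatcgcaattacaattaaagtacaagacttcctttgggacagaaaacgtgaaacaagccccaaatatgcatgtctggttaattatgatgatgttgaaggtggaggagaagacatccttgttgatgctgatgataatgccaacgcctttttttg
YBL070C: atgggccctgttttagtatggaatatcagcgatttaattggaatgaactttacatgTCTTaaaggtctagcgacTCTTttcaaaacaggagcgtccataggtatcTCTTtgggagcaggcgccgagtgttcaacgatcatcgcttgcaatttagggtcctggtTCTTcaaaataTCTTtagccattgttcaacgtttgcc
YMR122C: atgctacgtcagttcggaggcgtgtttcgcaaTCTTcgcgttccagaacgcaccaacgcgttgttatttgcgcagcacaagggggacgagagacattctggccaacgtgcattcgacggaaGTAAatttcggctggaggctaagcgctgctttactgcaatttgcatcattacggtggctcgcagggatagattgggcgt
YMR103C: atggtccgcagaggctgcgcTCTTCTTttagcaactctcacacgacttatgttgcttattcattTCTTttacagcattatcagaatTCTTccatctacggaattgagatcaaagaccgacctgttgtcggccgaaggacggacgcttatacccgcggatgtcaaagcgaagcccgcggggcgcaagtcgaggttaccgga
The YBL070C window held TCTT 5 times, and the YMR103C window held it 4 times, with its first 2 copies overlapping by 1 base. The YLR296W window held GTAA 3 times and TCTT 1 time, whereas the YJL152W window held none of the motifs on the frame's strand. On the other strand the YJL152W window held TCTT 3 times and GTAA and GTAG 1 time each.

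Over all 395 frames long enough for a window of 200 bases, TCTT was present on the frame's strand in 78.7% and on the other strand in 64.1%. In the first 200 bases of the 5868 annotated protein-coding genes the shares were 58.0% on the gene's strand and 85.8% on the other. The order of the strands was therefore opposite in the short frames and in genes. Frames over the start of an opposite-strand gene had TCTT in 83.8% of windows on their own strand and in 54.1% on the other strand, which is the strand of the overlapped gene. The shares for GTAA were 45.1% in frames and 47.6% in genes on the same strand as the frame or gene, and for GTAG 37.7% and 34.2%. Among the 99 frames that rose in the Nab3 comparison and had a window, TCTT was present on the frame's strand in 79.8%, and among the 104 that rose in the Nrd1 comparison in 81.7%. Those shares lay within a few points of the share over all short frames. TCTT can overlap a further TCTT by 1 base, and GTAG can overlap a GTAA or GTAG by 1 base; a match is a description of letters only.

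Signal on the short frames was low and spread over a wide range in the cassette libraries. Per 1000 bases, the median frame had 160 normalised reads, with quartiles of 36.9 and 634, against a median of 905 over all features and 1060 over features with a gene name. Unnamed frames above the size limit had a median of 492. Frames in the RefSeq annotation had a median of 205 reads per 1000 bases and frames without an entry 135. By position, the medians were 143 for frames that overlap no gene, 350 for frames on the same strand as a gene, 65.4 for frames over the start of an opposite-strand gene and 516 for frames over the end of such a gene. These are descriptions of 2 libraries, with no test.

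**Figure D1:**
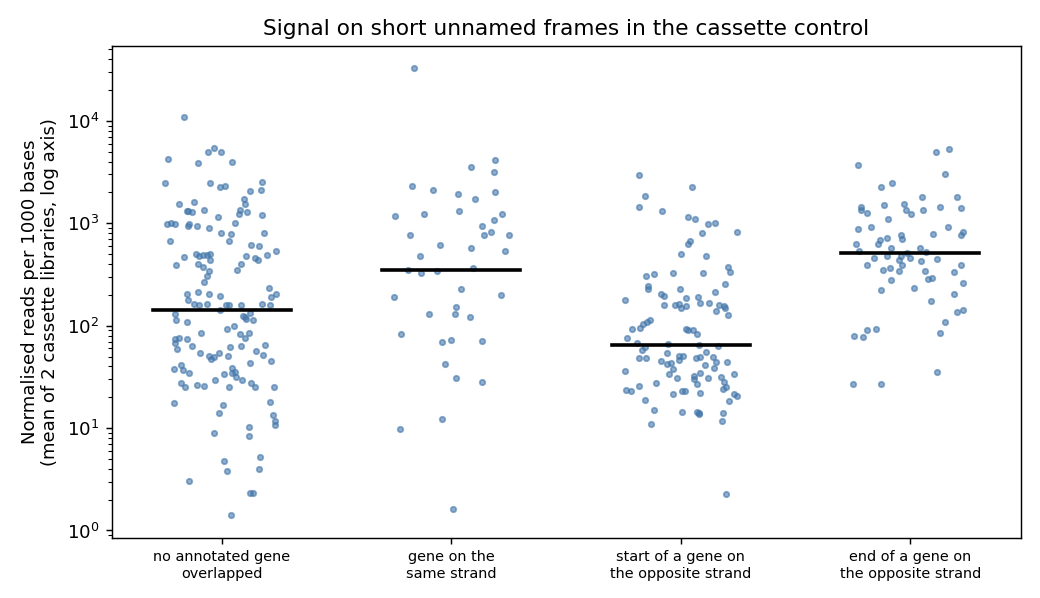
Normalised reads per 1000 bases on each short frame in the cassette control (mean of 2 libraries, log axis), by the annotated gene that the frame overlaps. Each point is a frame, frames at 0 are not drawn, and bars are class medians with frames at 0 included; frames over the start of an opposite-strand gene have the lowest median, 65.4, and frames over the end the highest, 516.

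Relative to the gene they overlap, frames over a gene's start and frames over its end had different median levels. The median start frame had 6.58% of the reads per 1000 bases of its gene, with quartiles of 2.53% and 16.5%, and 64 of 105 such frames stayed under 10%. The median end frame had 49.0%, with quartiles of 17.9% and 147%, and 13 of 70 stayed under 10%. The frame exceeded its gene in 7 of the 105 start pairs and in 20 of the 70 end pairs. Frames on the same strand as a protein-coding gene had a median of 45.8% of that gene's level over 43 pairs.

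The 5 highest levels per length belonged to frames of different kinds. YGL088W (chrVII:345836-346201, plus strand) had 31424 and 33821 reads per 1000 bases in the cassette group. It overlaps the small nucleolar RNA gene SNR10 on the same strand over 59.0% of its length, and reads from SNR10 cannot be told apart from it. YOR302W (chrXV:882765-882842, plus strand) had a mean of 10896 per 1000 bases; it is the short upstream frame of CPA1 that encodes the arginine attenuator peptide, which stalls ribosomes when arginine is plentiful. YCL006C, which has no position here, had 8719, and YGR182C, which overlaps the end of the mitochondrial import chaperone gene TIM13 on the opposite strand, had 5269. YBL028C (chrII:167518-167838, minus strand), a nucleolar protein thought to act in ribosome biogenesis, had 5469. Reads per frame for YBL028C were 1797 and 1714 in the cassette libraries, 1761 and 1786 in the Nab3 libraries and 1584 and 1562 in the Nrd1 libraries, and neither comparison passed the threshold. YML108W and YLR171W were the other frames with the highest levels among those past the threshold in neither comparison. YML108W had 1659 and 1504 reads in the cassette libraries, 1514 and 1409 in the Nab3 libraries and 1289 and 1527 in the Nrd1 libraries, and its groups overlapped.

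After Nab3 depletion, a larger share of short frames than of all features rose, and a smaller share fell. The fit was limma on log2(normalised reads + 1) over the whole table, with Benjamini-Hochberg adjustment over all features tested and a threshold of 0.05; fold changes on this scale understate the change of low features. Of the 417 frames, 350 had a mean of at least 10 reads and were tested, and 67 were not. Among those tested, 104 rose and 44 fell, or 29.7% and 12.6%, where 21.1% of all 6360 features tested rose and 18.7% fell. At 2-fold or more, 49 frames rose and 8 fell, or 14.0% and 2.29% of those tested, against 3.38% and 0.849% of all features. The median log2 fold change was 0.17 for the frames and −0.01 over all features. A frame can pass the filter through its depleted libraries alone. Of the 332 tested frames with a cassette mean of at least 10, 92 rose and 44 fell. The share over all features with that limit is not given here. By comparison, 983 of 5068 features with a gene name rose and 1009 fell, and among 598 unnamed frames above the size limit 151 rose and 84 fell. Unnamed frames with a suffix in the name had shares near those of the short frames. Among 335 tested, 28.4% rose, 14.6% fell and 13.1% rose at least 2-fold. With DESeq2 on the recovered reads, 65 short frames rose and 29 fell, and 1781 of all features were called in either direction.

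Frames over the start of an opposite-strand gene held 25 of the 49 rises of at least 2-fold. Of 98 tested, 41 rose and 6 fell, with a median log2 fold change of 0.49. These counts include frames that passed the filter only through their Nab3 libraries, YPL182C and YCL046W among them. Frames over the end of an opposite-strand gene gave 27 rises, 7 of them at least 2-fold, and 11 falls among 70 tested, with a median of 0.20. Frames that overlap no gene gave 29 rises and 18 falls among 124, or 23.4% and 14.5%, with a median of 0.08. On the same strand as a gene, 2 rose and 8 fell among 41; the frames that rose were YIR020C, over the noncoding RNA gene ICR1, with a log2 fold change of 0.64, and YJL135W, over LCB3, with 1.06. Of the genes overlapped at their start, 18 rose and 23 fell among 105 tested, with a median of −0.02. Frames without a RefSeq entry gave 78 rises and 23 falls among 228, or 34.2% and 10.1%. Frames with an entry gave 26 and 21 among 122, or 21.3% and 17.2%, near the 21.1% and 18.7% of all features.

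**Figure D2:**
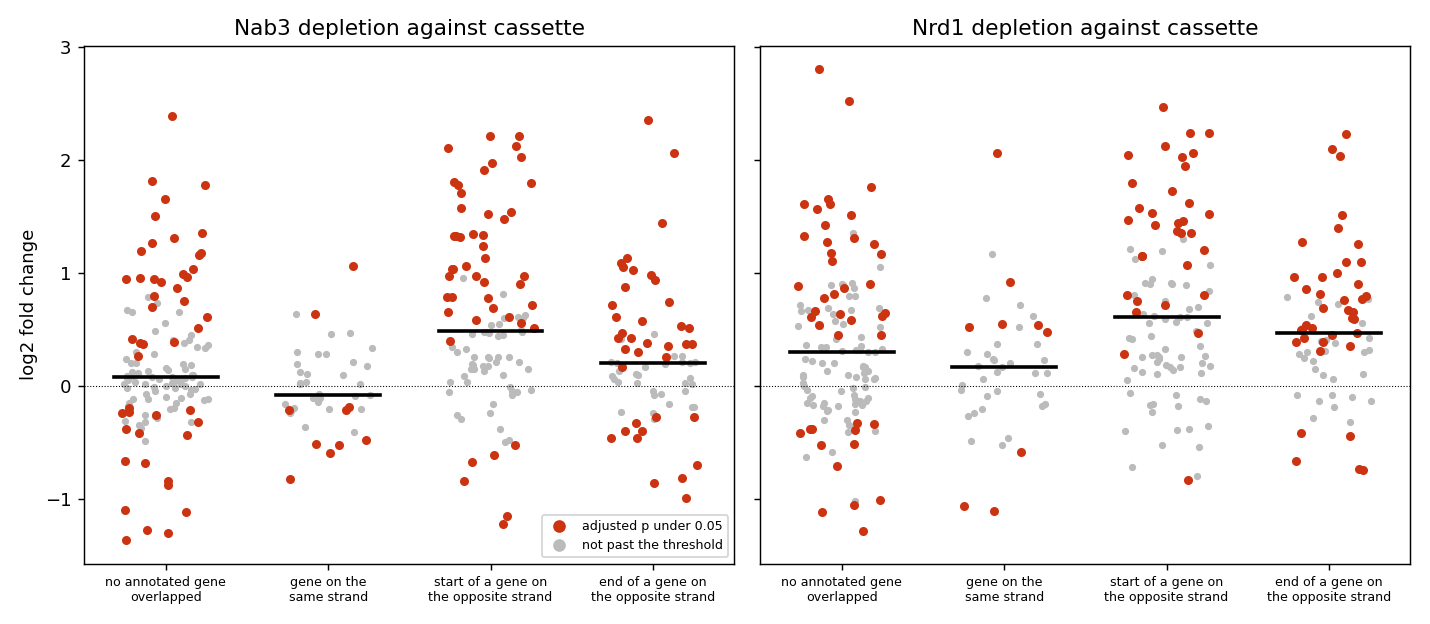
Log2 fold change of each tested short frame after Nab3 depletion (left) and Nrd1 depletion (right) against the same cassette libraries, by the annotated gene that the frame overlaps. Each point is a frame, red points passed an adjusted p of 0.05, grey points did not, and bars are medians; the medians for frames over the start of an opposite-strand gene are 0.49 and 0.61.

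The 5 left-out frames that met the name and size conditions rose after Nab3 depletion. Their log2 fold changes were 3.65 for YGR291C, 3.50 for YBR124W, 3.27 for YAR069C and YLR232W and 0.86 for YEL073C. Among the frames kept, the largest rise belonged to YLR296W (chrXII:722978-723304, plus strand), an annotated frame that overlaps no other gene. It had 30.1 and 19.2 reads in the cassette libraries, 114 and 149 in the Nab3 libraries, and a log2 fold change of 2.39 ± 0.24 (SE), or 5.24-fold, with an adjusted p of 1.95e-06. Its neighbours by number, ATP14 and YLR297W, had log2 fold changes of −0.06 and −0.24. YJL152W (chrX:136174-136533, plus strand) lies over the end of SNA3, which encodes an adaptor for sorting proteins into endosomes. It went from 123 and 131 reads to 624 and 681, a log2 fold change of 2.35 ± 0.11 with an adjusted p of 4.93e-10. SNA3 itself had 2125 and 2390 reads in the cassette libraries and 2308 and 2654 after Nab3 depletion, so the groups of the frame stood far apart while the gene differed little.

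Several of the next largest rises lay over the starts of genes with well-known products. YLR230W (chrXII:604574-604879, plus strand) covers the start of CDC42, the GTPase that sets cell polarity, and went from 20.3 and 18.1 reads to 92.2 and 92.6, a 4.63-fold rise with an adjusted p of 2.01e-06. CDC42 moved the other way, from 1737 and 1595 reads to 1339 and 1242, with an adjusted p of 0.000417. YOR146W (chrXV:605873-606178, plus strand) covers the start of the ribosome assembly gene PNO1 over 97.7% of its length and went from 19.5 and 11.3 reads to 76.7 and 68.2, with an adjusted p of 2.10e-05. In both pairs the cassette and Nab3 values of the frame did not overlap. YPL182C (chrXVI:203306-203689, minus strand), over the start of CTI6, a subunit of the Rpd3L histone deacetylase, went from 10.6 and 7.91 reads to 39.2 and 47.5. CTI6 rose as well, with a log2 fold change of 0.46 and an adjusted p of 2.5e-05, while PNO1 did not pass, at 0.14. YBL070C (chrII:90605-90925, minus strand), over the start of AST1, which helps deliver the plasma membrane proton pump, went from 30.1 and 28.2 to 128 and 107, a 3.92-fold rise with an adjusted p of 2.18e-06. AST1 had 1316 and 1339 reads in the cassette libraries and 1535 and 1408 in the Nab3 libraries, a far smaller difference than that of the frame.

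The remaining rises among the 10 largest came from frames with few reads in the control. YCL007C (chrIII:106974-107366, minus strand), over the start of VMA9, which encodes a subunit of the vacuolar proton pump, went from 37.1 and 22.6 reads to 117 and 140. VMA9 rose as well, with a log2 fold change of 0.30 and an adjusted p of 0.000546. The genes under YJL169W and YCL046W, SET2 and EMC1, did not pass, at 0.237 and 0.427. YJL169W (chrX:102099-102467, plus strand), over the end of the histone methyltransferase gene SET2, went from 11.5 and 14.7 to 53.1 and 62.1. YCL046W (chrIII:46640-46963, plus strand), over the start of EMC1, a subunit of a membrane protein insertase, rested on 6 and 2 reads before scaling in the cassette libraries. It had 5.31 and 2.26 normalised reads there and 18.0 and 17.1 in the Nab3 libraries, with an adjusted p of 0.00261. YDL034W, which has no position here, went from 6.19 and 2.26 to 15.5 and 20.7, with an adjusted p of 0.00396 by limma and 0.0587 by DESeq2. The cassette means of YPL182C, YCL046W and YDL034W were under 10, so each passed the filter only through its Nab3 libraries.

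**Figure D3:**
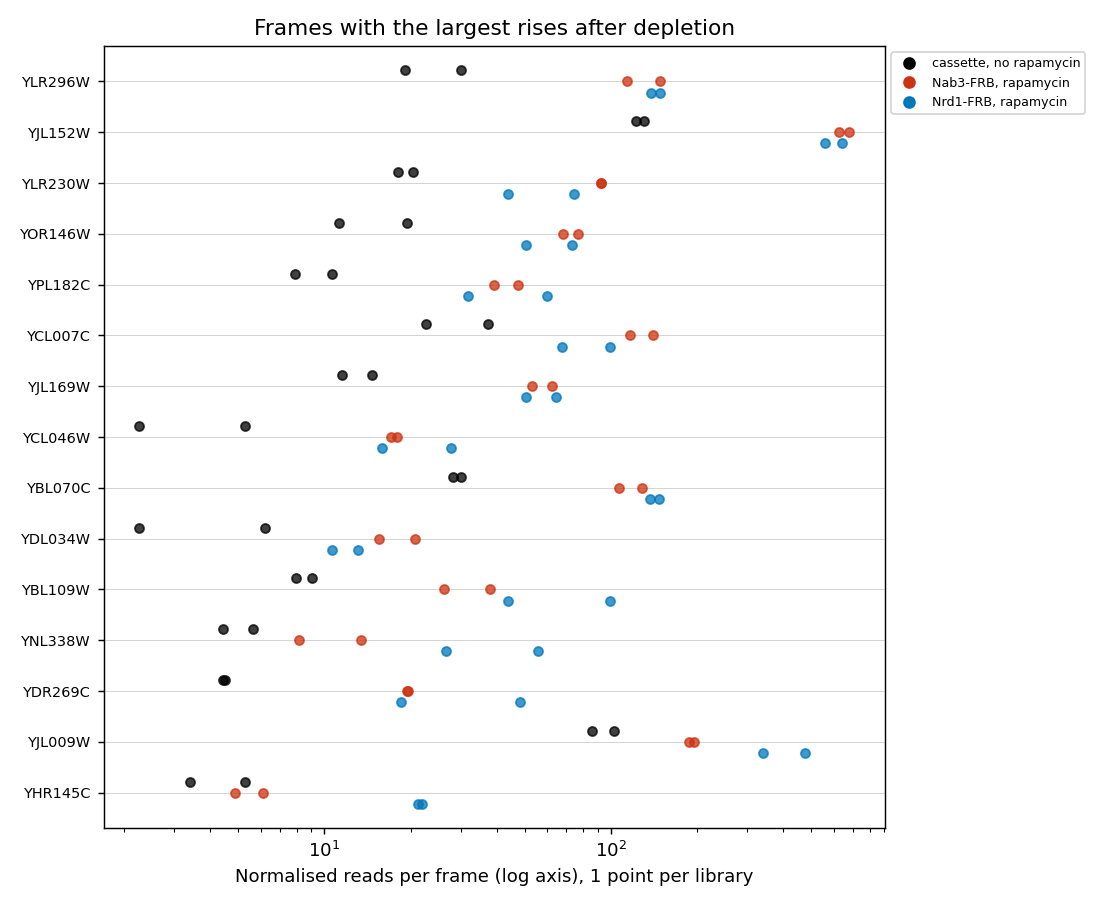
Normalised reads per frame (log axis) for the frames with the 10 largest rises in each depletion comparison, with 1 point for each of the 6 libraries. Black points are cassette libraries, red points Nab3-FRB with rapamycin and blue points Nrd1-FRB with rapamycin; YLR296W and YJL152W have all 4 depleted libraries to the right of both cassette libraries.

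Frames that fell after Nab3 depletion fell by less, and most of the 8 largest falls overlapped no gene or overlapped one only slightly. YIL054W (chrIX:254543-254860, plus strand) went from 146 and 142 reads in the cassette libraries to 48.2 and 63.3 in the Nab3 libraries, a log2 fold change of −1.37 ± 0.18 with an adjusted p of 2.65e-05. YPL080C (chrXVI:406172-406498, minus strand) went from 133 and 111 to 47.3 and 49.9, with an adjusted p of 4.66e-05. YGR069W (chrVII:627083-627418, plus strand), which shares 0.595% of its length with the arrestin-related gene ART5, went from 506 and 470 to 191 and 250, with an adjusted p of 3.86e-06. In each of these frames both Nab3 libraries were lower than both cassette libraries. YML122C (chrXIII:26038-26418, minus strand), which lies opposite an annotated noncoding RNA gene, went from 107 and 72.3 to 36.7 and 31.7. YOL131W (chrXV:73031-73357, plus strand) went from 21.2 and 19.2 to 8.16 and 7.31, with an adjusted p of 0.0107 by limma and 0.144 by DESeq2. The falls of YDL242W and YMR122C are given with the difference between the depletions.

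YDL118W (chrIV:247302-247682, plus strand) fell while the gene under it rose. The frame covers the start of HEM25, which encodes a mitochondrial glycine carrier needed for heme synthesis, over 81.6% of its length. It went from 36.3 and 33.9 reads to 15.5 and 13.4 after Nab3 depletion, a log2 fold change of −1.23 with an adjusted p of 0.00328 by limma and 0.0618 by DESeq2. HEM25 went from 654 and 579 reads to 1405 and 1333, a log2 fold change of 1.15 with an adjusted p of 2.87e-08. In the Nrd1 libraries the frame had 23.4 and 18.6 reads and HEM25 1255 and 1268, and there the adjusted p was 0.110 for the frame and 0.00035 for HEM25.

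After Nrd1 depletion, too, the share of short frames that rose was above that of all features, and the share that fell was below it. The comparison used the same cassette libraries, so its values are not independent of those above. Of 349 frames tested, 109 rose and 22 fell, or 31.2% and 6.30%, where 17.5% of all 6347 features tested rose and 17.8% fell. At 2-fold or more, 55 frames rose and 6 fell, or 15.8% and 1.72% of those tested, against 3.95% and 1.47% of all features. The median log2 fold change was 0.39 for the frames and 0.00 over all features. Among 328 tested unnamed frames with a suffix, 25.9% rose, 8.54% fell and 14.3% rose at least 2-fold. Among 597 tested unnamed frames above the size limit, 21.1% rose and 15.4% fell. The counts rested on the libraries fitted: 37 frames rose without cassette library 1, 31 without cassette library 2 and 172 without Nrd1 library 2, and 5 or 6 fell without cassette library 1 or 2 against 40 or 38 without Nrd1 library 1 or 2. Leaving out Nrd1 library 1 gave 117 rises. Of the 331 tested frames with a cassette mean of at least 10, 96 rose and 22 fell, again without a share over all features with that limit.

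By position, rises were most numerous among frames opposite a gene, at its end or its start. Of 69 end frames tested, 34 rose and 5 fell, with a median log2 fold change of 0.47 and 9 rises of at least 2-fold. Of 98 start frames tested, 32 rose and 1 fell, with a median of 0.61 and 25 rises of at least 2-fold. The rises of start frames include YPL182C, YDR269C and YCL046W, which passed the filter only through their Nrd1 libraries. The start frame that fell was YGL074C, described below with its gene HSF1. Frames that overlap no gene gave 30 rises and 13 falls among 125, or 24.0% and 10.4%. Frames on the same strand as a gene gave 6 and 3 among 41, or 14.6% and 7.32%. Frames without a RefSeq entry gave 80 rises and 8 falls among 228, or 35.1% and 3.51%. Frames with an entry gave 29 and 14 among 121, or 24.0% and 11.6%, beside 17.5% and 17.8% of all features. The genes overlapped at their start gave 21 rises and 22 falls among 105, and those overlapped at their end 9 and 16 among 69.

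Among the frames kept, YBL109W had the largest fitted rise after Nrd1 depletion. The left-out frames YAR069C, YGR291C, YBR124W and YLR232W had larger log2 fold changes, of 4.34, 3.45, 3.16 and 2.89, and YEL073C fell, at −1.68. Placed at chrII:5790-6125 on the plus strand, near the left end of the chromosome, YBL109W has 29.8% of its 25-base words elsewhere in the genome, so its reads are uncertain. It had 7.96 and 9.04 reads in the cassette libraries, 99.4 and 43.8 in the Nrd1 libraries and 26.1 and 37.8 in the Nab3 libraries. The log2 fold change was 2.80 ± 0.44, or 6.96-fold, with an adjusted p of 0.00412. YNL338W, which has no position here, went from 4.42 and 5.65 reads to 55.5 and 26.6, with an adjusted p of 0.00607. In both frames Nrd1 library 1 was well above Nrd1 library 2, and both were above the cassette values. Both frames had a cassette mean under 10, as did YPL182C, YDR269C, YCL046W and YHR145C below. All of them passed the filter only through their Nrd1 libraries, so their ranks rest on those libraries.

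YLR296W, YJL152W and YBL070C were high in both Nrd1 libraries. YLR296W had 149 and 138 reads there, a 5.73-fold rise with an adjusted p of 0.00106. YJL152W had 640 and 558, a 4.67-fold rise with an adjusted p of 9.86e-05. YBL070C had 148 and 137, a 4.72-fold rise with an adjusted p of 0.000599. Each of these values was above both cassette values of the same frame. YJL009W (chrX:419855-420181, plus strand), over the end of the chaperonin gene CCT8, went from 103 and 85.8 reads to 478 and 341, a log2 fold change of 2.09 ± 0.20 with an adjusted p of 0.000591. YJL169W had 64.3 and 50.4 reads in the Nrd1 libraries, with an adjusted p of 0.00415.

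Other large rises did not pass the threshold in a fit without 1 of the cassette libraries. Such a fit leaves 1 control library, so a lost call does not show that the rise depends on that library. YPL182C had 59.9 and 31.9 reads in the Nrd1 libraries, with an adjusted p of 0.00932 that became 0.0654 without cassette library 2. YDR269C (chrIV:1005665-1005988, minus strand), over the start of the copper pump gene CCC2, had 4.42 and 4.52 reads in the cassette libraries and 48.2 and 18.6 in the Nrd1 libraries. Its adjusted p was 0.0126, and its log2 fold change of 2.47 became 2.46 or 2.48 without cassette library 1 or 2. YCL046W had 27.8 and 15.9 reads, with an adjusted p of 0.0194, and its log2 fold change of 2.24 became 2.69 or 1.78 in the same way. YHR145C (chrVIII:388981-389337, minus strand), which shares 4.2% of its length with the tRNA gene SUF8 and 41.4% of its 25-base words with other places, went from 5.31 and 3.39 to 21.9 and 21.2. For YHR145C the adjusted p was 0.0128, and the log2 fold change of 2.06 became 2.32 or 1.81 without cassette library 1 or 2. The rises of YLR230W, YOR146W and YCL007C, with log2 fold changes of 1.52, 1.95 and 1.46, were lost without cassette library 2, at adjusted p of 0.095, 0.0628 and 0.111, and that of YLR230W also without cassette library 1, at 0.0823.

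The frames that fell most after Nrd1 depletion included genes that have since received a role. YJL144W (chrX:146359-146673, plus strand), now ROQ1, encodes a small protein that redirects the ubiquitin ligase Ubr1 to misfolded proteins under stress. It had 452 and 512 reads in the cassette libraries, 170 and 227 in the Nrd1 libraries and 302 and 418 in the Nab3 libraries, and a log2 fold change of −1.29 ± 0.16 after Nrd1 depletion with an adjusted p of 0.00203. YHR138C (chrVIII:377355-377699, minus strand), a relative of the proteinase B inhibitor Pbi2, went from 881 and 852 to 389 and 406, with an adjusted p of 0.000293. In the Nab3 libraries YHR138C had 798 and 698 reads, so the groups were ordered cassette, Nab3, Nrd1 from high to low with no overlap. YLR252W (chrXII:641957-642262, plus strand) shares its strand with the end of the mitochondrial gene SYM1 and went from 256 and 211 to 101 and 114. SYM1 fell as well, from 485 and 478 to 286 and 267, with an adjusted p of 0.00243, and reads on the shared bases cannot be told apart. The fall of YLR252W passed the threshold with both cassette libraries, at an adjusted p of 0.00387, and not without cassette library 1, at 0.069.

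The other falls were smaller or less stable. YLR169W (chrXII:500335-500688, plus strand), over the end of APS1, which encodes a small clathrin adaptor subunit, had 867 and 890 reads in the cassette libraries, 482 and 565 in the Nrd1 libraries and 471 and 526 in the Nab3 libraries. Its adjusted p was 0.00243 for Nrd1 and 1.85e-06 for Nab3. YLR171W lies over the start of the same gene and had 892 and 871 reads in the cassette libraries, 719 and 892 after Nrd1 depletion and 900 and 1102 after Nab3 depletion, and passed in neither comparison. Frames at the opposite ends of 1 gene thus had different values. APS1 itself fell, by a log2 fold change of −0.34 after Nab3 depletion and −0.47 after Nrd1 depletion, with adjusted p of 0.000762 and 0.00322. Reads from APS1 and from these frames cannot be told apart. YPR077C, on the same strand as YPR078C, went from 38.0 and 52.0 to 19.0 and 22.6, and YOL085C from 73.4 and 61.0 to 38.0 and 27.9. Both passed with all libraries, at adjusted p of 0.0372 and 0.0284, and neither passed without cassette library 1 or 2, at 0.141 and 0.314 for YPR077C and 0.251 and 0.132 for YOL085C.

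Frames over the starts of genes were also set beside the genes themselves. In 92 pairs with both features tested, the frame's log2 fold change was above that of its gene in 73 pairs after Nab3 depletion and, against the same cassette libraries, in 73 after Nrd1 depletion. Of the 40 frames that rose after Nab3 depletion and had a tested gene, 8 had a gene that rose, 10 a gene that fell and 22 a gene that did not pass. Of the 30 frames that rose after Nrd1 depletion, the same counts were 6, 8 and 16. Across the 92 pairs Pearson's r between frame and gene was −0.04 for Nab3 and −0.10 for Nrd1, a description across pairs that share libraries. For frames over the ends of genes, the frame was above its gene in 43 of 70 pairs after Nab3 depletion and in 56 of 69 after Nrd1 depletion. Between frames and the features next to them by number, r lay between −0.09 and 0.04 over 335 to 341 pairs.

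**Figure D4:**
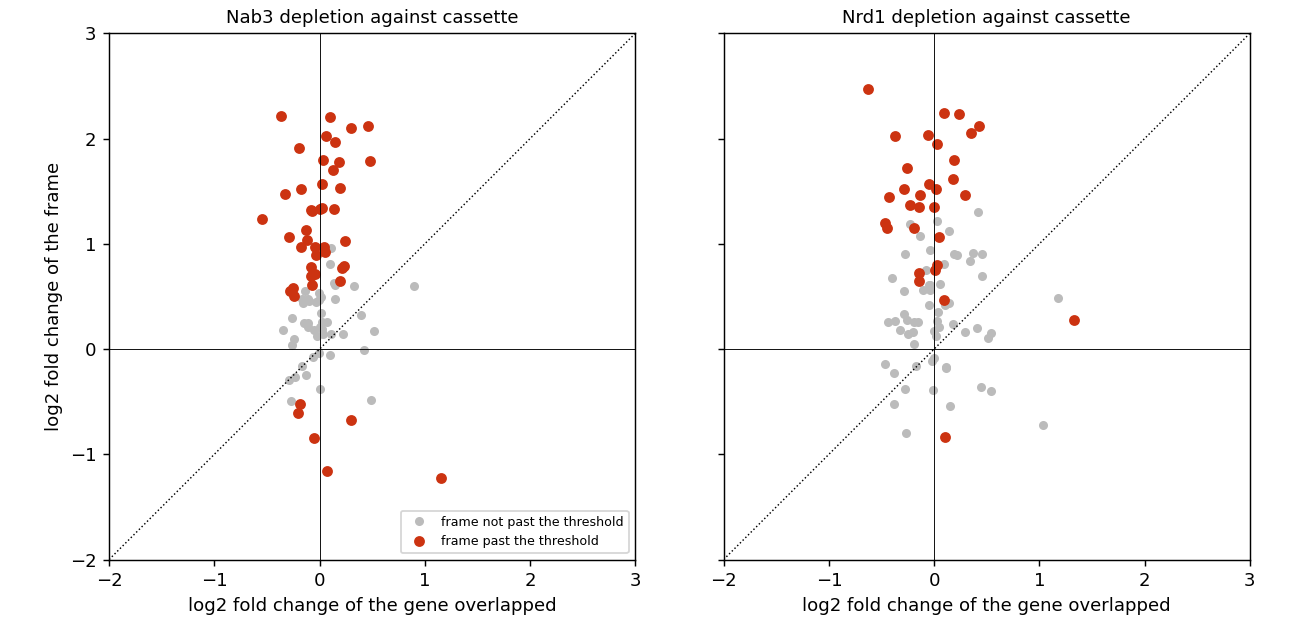
Log2 fold change of each frame over the start of an opposite-strand gene (y axis) against that of the gene (x axis), after Nab3 depletion (left) and Nrd1 depletion (right), for 92 pairs. Each point is a pair, red where the frame passed an adjusted p of 0.05, and the dotted line marks equal changes; 73 points lie above it in each panel.

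With tRNA and ribosomal RNA genes excluded, only 2 short frames have an annotated noncoding RNA gene ending within 1000 bases upstream on their strand. Both rose in each comparison. YOR277C (chrXV:841515-841823, minus strand) begins 135 bases after the small nucleolar RNA gene SNR31 and lies over the end of CAF20, which encodes a binding partner of the cap-binding factor eIF4E. It had 370 and 391 reads in the cassette libraries, 974 and 1097 in the Nab3 libraries and 1119 and 1049 in the Nrd1 libraries. The log2 fold changes were 1.44 ± 0.08 and 1.51 ± 0.09, with adjusted p of 8.51e-09 and 9.86e-05, and all 4 depleted libraries were above both cassette libraries. YCL007C begins 138 bases after SNR43, and its values are given above.

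Of the 14 frames that have since received a gene symbol, 1 rose and 5 fell after Nab3 depletion among 13 tested, where 21.1% of all features rose and 18.7% fell. After Nrd1 depletion none rose and 3 fell among 12 tested, where 17.5% and 17.8% of all features did. The frame that rose was YLR053C, now NRS1 (chrXII:248100-248426, minus strand), which encodes an activator of cell cycle entry that appears when nitrogen is scarce or rapamycin is given. It had 166 and 157 reads in the cassette libraries, 362 and 371 in the Nab3 libraries and 269 and 202 in the Nrd1 libraries. The log2 fold change was 1.18 ± 0.11 after Nab3 depletion, with an adjusted p of 1.06e-06, and 0.52 ± 0.18 after Nrd1 depletion, with an adjusted p of 0.0545. Besides ROQ1, the frames that fell after Nab3 depletion were MGP12, TMH11, DMO2 and MRP35, with log2 fold changes of −0.69, −0.26, −0.20 and −0.24, and after Nrd1 depletion TMH11 and DMO2, with −0.42 and −0.52. All but the fall of MGP12 and that of TMH11 after Nab3 depletion, and of ROQ1 after Nrd1 depletion, lost the threshold when some library was left out. After Nab3 depletion the adjusted p became 0.106 for ROQ1 without Nab3 library 2, 0.318 for DMO2 without cassette library 1 and 0.178 without Nab3 library 3, and 0.149 or 0.106 for MRP35 without cassette library 1 or 2. After Nrd1 depletion it became 0.0817 or 0.0545 for TMH11 without cassette library 1 or 2 and 0.0597 for DMO2 without cassette library 1. Within 20 kb of a chromosome end, 3 frames rose and 1 fell after Nab3 depletion among 16 tested, or 18.8% and 6.25%. After Nrd1 depletion 6 rose, or 37.5%, and none fell among 16 tested.

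The depletions were compared with each other in a joint fit of the 6 libraries. Of 359 frames tested, 22 were higher after Nab3 depletion and 59 higher after Nrd1 depletion, or 6.13% and 16.4%, where 12.1% and 8.91% of all 6385 features tested fell on those sides. At 2-fold or more the counts were 6 and 9, with 0.846% and 0.626% of all features. The median log2 difference, Nab3 minus Nrd1, was −0.17 for the frames and 0.00 over all features. Among 344 tested unnamed frames with a suffix, 5.81% were higher after Nab3 depletion and 11.6% after Nrd1 depletion. Frames over the end of an opposite-strand gene contributed 23 of the 59 and 1 of the 22, with 70 tested, whereas frames over the start gave 7 and 5 among 103. Without Nab3 library 2 or 3 the higher-after-Nrd1 count was 17 or 18 and the higher-after-Nab3 count 9 or 6. The tagged subunit is named for the Nrd1 libraries only, and the rapamycin time is given for them only, so tag and time cannot be told apart from the protein depleted.

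YMR122C, an annotated frame at chrXIII:510701-511075 on the minus strand, fell after Nab3 depletion and rose after Nrd1 depletion. It had 60.1 and 47.4 reads in the cassette libraries, 24.5 and 24.4 in the Nab3 libraries and 92.1 and 105 in the Nrd1 libraries, with no overlap among the groups. The log2 difference was −1.97 ± 0.23 with an adjusted p of 0.00105, and the fits against the cassette gave −1.10 with an adjusted p of 0.00225 and 0.87 with 0.0249. The rise after Nrd1 depletion did not pass without cassette library 1 or 2, at 0.100 and 0.210. YMR103C (chrXIII:472902-473264, minus strand) moved the other way, with 496 and 480 reads in the cassette libraries, 624 and 653 in the Nab3 libraries and 367 and 381 in the Nrd1 libraries. Its log2 difference was 0.77 ± 0.09 with an adjusted p of 0.001. Its neighbour upstream on the same strand, the protein kinase gene YPK2, ends 156 bases before it and had log2 fold changes of 0.86 after Nab3 depletion and −0.06 after Nrd1 depletion. YNL171C (chrXIV:315629-315997, minus strand), over the end of the anaphase-promoting complex gene APC1, had 172 and 211 reads in the cassette libraries, 261 and 234 in the Nab3 libraries and 114 in each Nrd1 library. For YMR103C and YNL171C the fall after Nrd1 depletion did not pass without cassette library 1 or 2, at adjusted p of 0.236 and 0.170 for YMR103C and 0.0815 and 0.202 for YNL171C, and the rise of YNL171C after Nab3 depletion did not pass without cassette library 1 or Nab3 library 2, at 0.352 and 0.0971.

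Other frames were higher after Nab3 depletion than after Nrd1 depletion. YOL037C (chrXV:256666-257019, minus strand), over the start of YOL036W, had 133 and 116 reads in the Nab3 libraries, 65.8 and 43.8 in the Nrd1 libraries and 71.6 and 71.2 in the cassette libraries. The Nab3 libraries stood above the other groups, with a log2 difference of 1.19 ± 0.23 and an adjusted p of 0.00844, which became 0.0768 or 0.0579 without Nab3 library 2 or 3. YLR415C (chrXII:954259-954597, minus strand) had 322 and 375 reads in the Nab3 libraries, 308 and 334 in the cassette libraries and 184 and 129 in the Nrd1 libraries, so there the Nrd1 libraries stood apart. Its fall after Nrd1 depletion, at an adjusted p of 0.00667, became 0.0635 without cassette library 2. YGL074C (chrVII:368596-368922, minus strand), over the start of the heat shock factor gene HSF1, had 89.0 and 87.7 reads in the Nab3 libraries, 72.5 and 75.7 in the cassette libraries and 42.4 and 39.8 in the Nrd1 libraries. HSF1 had 1492 and 1714 reads in the Nab3 libraries and 1881 and 1832 in the Nrd1 libraries, with the higher values on the other side. The fall of YGL074C after Nrd1 depletion, at an adjusted p of 0.0286, did not pass without cassette library 1 or 2, at 0.207 and 0.227, and its difference between depletions did not pass without Nab3 library 2 or 3, at 0.0567 and 0.0611. YML090W (chrXIII:90744-91130, plus strand) had 37.6 and 39.0 reads in the Nab3 libraries and 16.1 and 18.6 in the Nrd1 libraries, with an adjusted p of 0.0334 that became 0.0645, 0.0613, 0.143 or 0.169 without cassette library 1 or 2 or Nab3 library 2 or 3.

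On the other side of the difference were frames with few reads. YHR145C and YNL338W passed the filter only through their Nrd1 libraries. YHR145C had 4.90 and 6.09 reads in the Nab3 libraries and 21.9 and 21.2 in the Nrd1 libraries, and YNL338W had 8.16 and 13.4 against 55.5 and 26.6. YAR064W (chrI:220198-220497, plus strand), a fragment of a flocculin gene with 81.9% of its 25-base words elsewhere in the genome, had 17.1 and 13.4 against 43.8 and 62.4. Its cassette libraries had 23.0 and 12.4 reads, within reach of the Nab3 values. YDL242W (chrIV:18959-19312, plus strand) had 9.80 and 13.4 reads in the Nab3 libraries, 23.9 and 28.2 in the cassette libraries and 33.6 and 33.2 in the Nrd1 libraries. The fall of YDL242W after Nab3 depletion, at an adjusted p of 0.014, became 0.065 without cassette library 2, 0.0526 without Nab3 library 2 and 0.146 by DESeq2. YJL009W, described above, rose in both comparisons and still differed between them, by −1.07 ± 0.18 on the log2 scale with an adjusted p of 0.00486, which became 0.0541 without Nab3 library 3. For the other frames of this side the difference did not pass without Nab3 library 2 or 3: the adjusted p was 0.121 and 0.0969 for YHR145C, 0.166 and 0.085 for YNL338W, 0.0624 and 0.101 for YAR064W and 0.0891 and 0.0552 for YDL242W. That of YNL338W also became 0.0916 without Nrd1 library 1.

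**Figure D5:**
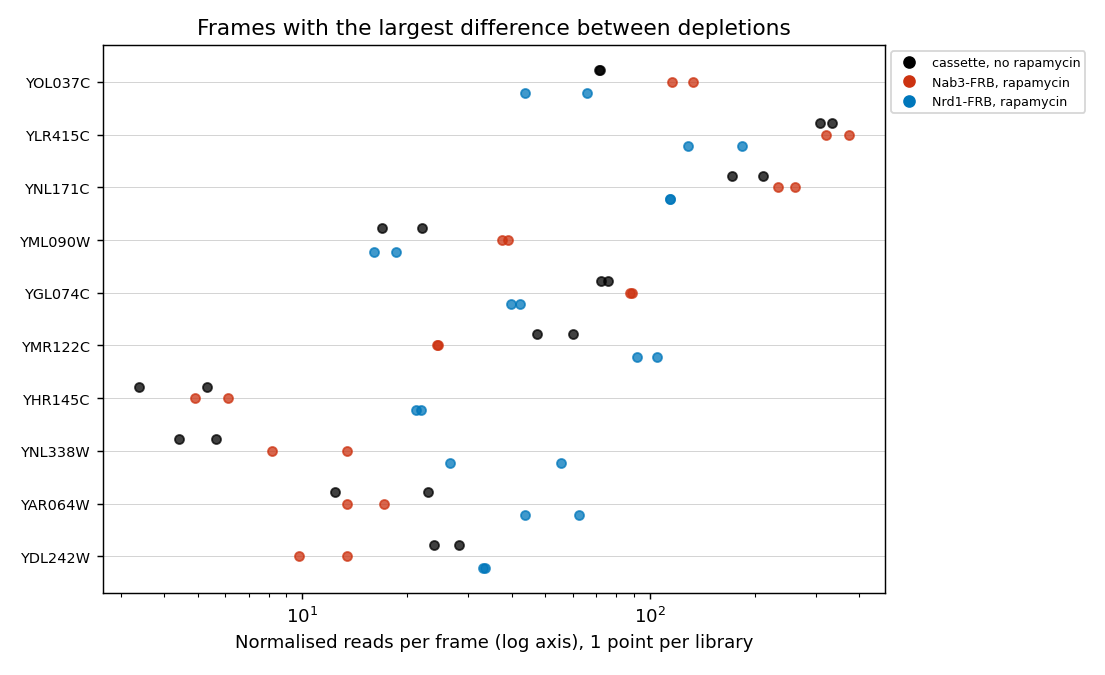
Normalised reads per frame (log axis) for the 5 frames most above in the Nab3 libraries and the 5 most above in the Nrd1 libraries, with 1 point for each of the 6 libraries. Black points are cassette libraries, red points Nab3-FRB with rapamycin and blue points Nrd1-FRB with rapamycin; for YMR122C the cassette points, 60.1 and 47.4, lie between the other groups.

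The size limit fell among frames with low signal. Just inside it, YCL013W had no reads in any library and YDR193W, over the start of the nucleoporin gene NUP42, had 9.73 and 2.26 reads in the cassette libraries, 5.71 and 8.53 in the Nab3 libraries and 8.77 and 5.31 in the Nrd1 libraries. Just outside it, YBL012C had 32.7 and 29.4, 40.8 and 41.4, and 55.5 and 35.8 reads in the same order, and YBR134W had 30.1 and 30.5, 44.1 and 41.4, and 45.3 and 39.8.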

How the data were processed

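Reads of each library were aligned and counted by the authors; the submitters' processing notes name Bowtie 1.1.1, DESeq and builds R64 and sacCer3. The deposited signal values are read counts divided by 1 size factor per library: 100% of values came out as whole reads within 0.01. Per the file headers, the deposited comparison tables also hold log2 fold changes, p-values and feature sizes. The authors' deposited table gives 67 rises and 32 falls of short frames for Nab3 (399 with an adjusted p). For Nrd1 it gives 77 rises and 15 falls (400). The shares over all features in those tables are not given here, so the counts are not set against them.

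Each table was fitted alone with limma 3.58.1 (R 4.3.3) on log2(value + 1); features averaging under 10 were dropped; the Nrd1 table was multiplied by 1.18 for the joint fit. edgeR 4.0.16 and DESeq2 1.42.0 on recovered reads were alternatives and called 2522 and 1781 features for Nab3, 2280 and 1728 for Nrd1 and 1337 and 1074 for the difference, where limma called 2528, 2238 and 1341. Depth was 12084304 and 9584474 reads (cassette), 13428820 and 9046857 (Nab3) and 7395659 and 8077260 (Nrd1). Fits were also run on simulated data with the same spread in every group. The real groups differed in spread, so that run does not measure the error of these fits.

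Frames without an annotation entry were placed where the named strand held 1 ATG-to-stop frame of the deposited length between annotated neighbours. Of 362 annotated frames treated alike, 340 gave 1 candidate and all 340 were at the annotated position. That check covers annotated frames only. Among the placed frames, YAR043C and YAR047C received the same position, so their placement is uncertain. Sequences are from the RefSeq copy of R64.

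Named frames are the 10 largest rises and 8 largest falls per depletion, the 5 largest differences each way, the 5 highest levels, the 3 highest past in neither comparison, up to 3 called in opposite directions and 2 on each side of the size limit. YIR020C, YJL135W, YOR277C and the frames with newer symbols were added after their values were seen. The members and lists were chosen with earlier results of these data known, the 9 features left out among them, and the split of frames over a gene's start or end was added after the data were seen.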

Additional observations from a re-analysis of the deposited data

Results flagged for a closer look

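A joint fit of all 6 libraries found 10 named frames whose levels differed between the depletions, which share their cassette libraries. The log2 difference, Nab3 minus Nrd1, was 1.19 for YOL037C, 1.17 for YLR415C, 1.11 for YNL171C, 1.1 for YML090W and 1.09 for YGL074C. On the other side it was −1.97 for YMR122C, −1.80 for YHR145C, −1.78 for YNL338W, −1.72 for YAR064W and −1.46 for YDL242W. Without Nab3 library 2 or 3 the adjusted p by limma was over 0.05 for each of these but YMR122C, YLR415C and YNL171C.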

How the results depend on the processing

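Of 2005 values for named frames under alternatives, 1831 kept their direction and side of the threshold, 133 lost the threshold, 41 gained it and none reversed. The counts of short frames that follow are given without the shares over all features under the same settings. For Nab3 depletion, a mean of at least 50 reads gave 69 rises, and DESeq2 gave 65 rises and 29 falls; leaving out 1 library gave 86 to 99 rises and 35 to 48 falls. For Nrd1 depletion, leaving out 1 library gave 31 to 172 rises and 5 to 40 falls. For the difference it gave 6 to 31 frames higher after Nab3 and 17 to 88 higher after Nrd1. With a size limit of 300, 12.5% of 16 tested frames rose after Nab3 depletion; of 17 in the joint fit, 0% were higher after Nab3 and 35.3% after Nrd1. The cause was not tested. A replicate block for cassette and Nrd1 numbers gave 120 rises and 25 falls; same-numbered libraries deviated together with a correlation of 0.01, so the numbers were not treated as pairs. No paired analysis was possible for Nab3 because its column numbers do not match those of the cassette group. A limit on the cassette mean, and leaving out frames with over 20% of 25-base words elsewhere, were chosen after seeing the data and kept all counts within 1.5 times. TMM and upper-quartile scaling moved the median of all features by less than 0.1. Of the 20 frames highest per length, 17 were also among the 20 highest by reads alone.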
